A study of Mus musculus with 4 samples.

Results

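The miR-34 and miR-449 microRNAs were followed in liver tumours and normal liver tissue of mice. MicroRNAs (miRNAs) are short RNAs that repress messenger RNAs, mainly through the seed, the bases 2 to 8 from the 5′ end. The family includes mmu-miR-34a, mmu-miR-34c and mmu-miR-449a (mmu marks mouse miRNAs). The members were the probes named miR-34a, miR-34b, miR-34c, miR-449a, miR-449b or miR-449c on either arm, star arms left out. There were 7 such probes among 566 probes for mouse miRNAs, and miR-34b had a probe for each arm. The samples were 2 liver tumours and 2 normal livers. By the protocols in the labels, female NF2fl/fl mice, whose Nf2 gene is floxed, received AAV2/8-Cre, an adeno-associated virus that carries Cre recombinase and served to delete Nf2 in hepatocytes, or PBS. The product of Nf2, merlin, is a tumour suppressor that acts through Hippo signalling. Tumours were cut from the livers 50 weeks after that, and neither the mice's age nor the promoter driving Cre is stated in the labels. The protocols name 3 mice without dividing them between the groups, and the labels do not tie the normal samples to the PBS mice. No label says that the samples within a group are from different animals. The spread behind each p-value, that between these samples, may therefore be technical.

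In mammals Mir34a is a direct target gene of the tumour suppressor p53, and its miRNA restrains cell cycle and survival genes such as Cdk6, Met and Bcl2. The Mir34b and Mir34c genes are made from 1 shared transcript and are also activated by p53, and they are typical of testis and of multiciliated cells. The miR-449 miRNAs, made from an intron of Cdc20b, have the same seed, are induced by E2F1 and act in the formation of motile cilia. The probes do not measure p53 itself.

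The mature sequences show what the members have in common. They are taken from RefSeq (GRCm38.p6), which held 5 of the 7 probes' miRNAs, and the seed is in capitals. Those of the miR-34c and miR-449b probes were missing.
miR-34a: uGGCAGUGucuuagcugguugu
miR-34b-5p: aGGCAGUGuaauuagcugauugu
miR-449a: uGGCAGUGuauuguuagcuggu
miR-449c: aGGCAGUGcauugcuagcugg
miR-34b-3p: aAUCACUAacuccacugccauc
The seed GGCAGUG was shared by the first 4 and by no other of 1679 mature mouse sequences in that table. Since the table lacks the sequences of the miR-34c and miR-449b probes, it cannot show whether these share the seed. The arm miR-34b-3p has the seed AUCACUA, which 2 mature sequences of the table carry, its own and miR-34c-3p. In a pairwise alignment miR-34a and miR-34b-5p had 19 identical bases over the 22 of the shorter one, and miR-34a and miR-449a had 18. How far the probes tell such related sequences apart is not stated in the labels.

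The members come from 3 places in the mouse genome. The miR-34a mature sequence lies at chr4:150068473-150068494 on the plus strand, inside a hairpin that overlaps no other gene span in the annotation table. On chromosome 9, on the minus strand, the Mir34c hairpin (chr9:51103034-51103110) and the Mir34b hairpin (chr9:51103562-51103645) are 451 bases apart and lie within the spans of the protein-coding genes Hoatz and Btg4. On chromosome 13, on the plus strand, the Mir449c hairpin (chr13:113035983-113036091) and the Mir449a hairpin (chr13:113037534-113037624) are 1442 bases apart and lie within the span of Cdc20b.

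The assay counts colour-coded probes one by one, and the deposited values are those counts times 1 factor per sample. Recovered counts over the mouse miRNA probes totalled 239727 and 123818 in the tumours and 68260 and 62054 in the normal livers. The factors were 0.395 and 0.905 in the tumours and 2.09 and 2.30 in the normal livers, so background is multiplied up in normal liver. A probe was called above the negative controls in a sample where its count was over a threshold set by the same sample's 6 negative control probes, their mean plus 2 SD. That threshold was 17.6 and 14.9 counts in the tumours and 18.3 and 11.2 counts in the normal livers. The liver label could be checked on miR-122, the dominant hepatocyte miRNA, which had 31635 and 18105 counts in the tumours and 11760 and 12674 counts in the normal livers. Counts of the 2 tumours differed beyond sampling noise, at 34.1 units of chi-square per probe, as did those of the 2 normal livers, at 3.24, and each sample was counted separately.

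Of the 7 probes, 4 exceeded the negative controls in at least 1 sample, and miR-34a and miR-34c did so in all 4 samples. MiR-34a had 201 and 82 counts in the tumours, against 24 and 17 counts in the normal livers. MiR-34c had 1011 and 797 counts in the tumours, against 499 and 386 counts in the normal livers. Both were therefore measured in every sample, miR-34a with little room in normal liver, where its count was 1.31 and 1.52 times the threshold. MiR-34b-5p had 22 and 10 counts in the tumours, against 15 and 12 counts in the normal livers, and was above the threshold in 1 sample of each group. MiR-34b-3p had 16 and 6 counts in the tumours, against 10 and 14 counts in the normal livers, and passed in 1 normal liver only. Neither arm of miR-34b was thus separated from background in both samples of either group.

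The miR-449 probes were not above the negative controls in any of the 4 samples. MiR-449a had 9 and 5 counts in the tumours and 4 and 11 counts in the normal livers, where the 11 counts lay just under the threshold of 11.2. MiR-449b had 7 and 6 counts in the tumours and 7 and 2 counts in the normal livers. MiR-449c had 6 and 5 counts in the tumours and 3 and 2 counts in the normal livers. These counts are within the range of the negative controls pooled over all samples, 2 to 17 counts. In normal liver replicate 2 alone the controls ran from 5 to 10 counts, so the 11 counts of miR-449a lay above the highest of them. Levels of the miR-449 miRNAs were not detectable at this depth, and no fold is given for them.

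**Figure D1:**
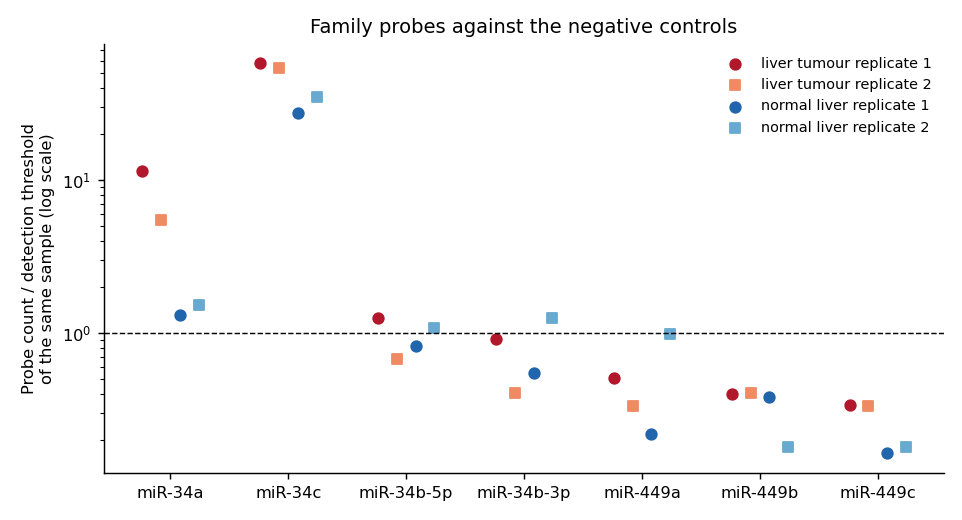
The y axis (log scale) gives each probe's count divided by the detection threshold of the same sample, for the 7 family probes on the x axis, with tumours in red and orange and normal livers in blue. Only miR-34a and miR-34c lie above the dashed line at 1 in all 4 samples, and the 3 miR-449 probes lie below it in every sample.

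MiR-34a, the member that p53 activates in most tissues, was higher in both tumours than in both normal livers. It had 79.4 and 74.2 scaled counts in the tumours, against 50.05 and 39.04 scaled counts in the normal livers. The groups did not overlap, and in the deposited scaling the tumours lay close together. Their shares of all counts and their ratios to miR-34c and miR-122, given below, lay further apart. The means were 76.8 ± 3.66 scaled counts in tumours and 44.5 ± 7.79 in normal livers (SD, n = 2 per group), 1.72-fold higher in tumours. On the log2(value + 1) scale the difference was 0.78 (SE 0.27, 95% interval 0.14 to 1.43, limma adjusted p = 0.046). The call rested on a narrow margin, since it ended without any 1 of the 4 samples (adjusted p = 0.0749 to 0.184, differences 0.61 to 0.96). The difference itself stayed above 0 in each of 21 alternative settings, of which 12 called it. Several of these settings changed only the filter or the variance estimate and could not move the difference. The count of 21 is therefore no independent support.

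MiR-34c, made with miR-34b from the chromosome 9 transcript, did not pass the test. It had 399 and 721 scaled counts in the tumours, against 1041 and 886 scaled counts in the normal livers. Both tumours were below both normal livers, and the tumours differed from each other by 1.81-fold, against 1.17-fold between the normal livers. The means were 560 ± 228 scaled counts in tumours and 964 ± 109 in normal livers (SD, n = 2 per group). On the log2(value + 1) scale the difference was -0.84 (SE 0.35, 95% interval -1.68 to 0.0062, limma adjusted p = 0.0827). The interval includes differences of 0 and of well below -1 on the log2 scale. Liver tumour replicate 1 set most of the distance, the difference being -0.41 without it (adjusted p = 0.346) and -1.26 without liver tumour replicate 2 (adjusted p = 0.0184).

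**Figure D2:**
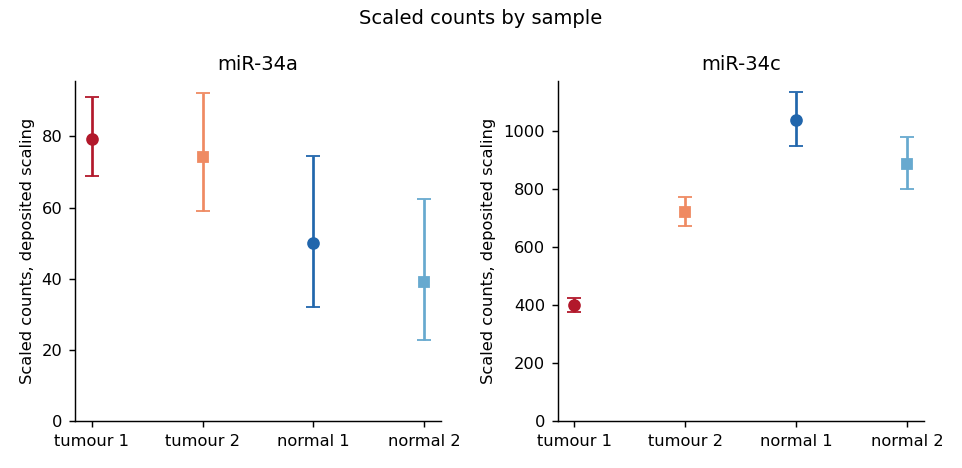
The y axes give scaled counts in the deposited scaling for miR-34a (left) and miR-34c (right) in the 2 tumours and 2 normal livers, with exact 95% Poisson intervals of the count, which cover counting error only. MiR-34a is higher in both tumours, with intervals that still reach into those of normal liver, and miR-34c is lower in both tumours, which differ from each other beyond counting error.

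MiR-34b-5p, of the same transcript as miR-34c, was called lower by limma on values near background. It had 8.69 and 9.05 scaled counts in the tumours, against 31.3 and 27.6 scaled counts in the normal livers, a log2 difference of -1.62 (SE 0.25, adjusted p = 0.00339). The mean negative control of the same samples stood at 2.96 and 6.94 scaled counts in the tumours, against 18.4 and 17.6 in the normal livers. MiR-34b-5p passed the filter's limit of 3.93 only through the normal livers, with a mean log2 value of 3.30 in the tumours and 4.92 in the normal livers. On the same log2 scale that background differed by -1.76 between the groups, against -1.62 for miR-34b-5p. Less that background, miR-34b-5p had 5.73 and 2.11 scaled counts in the tumours, against 12.9 and 9.95 in the normal livers, and limma no longer called it (log2 difference -1.43, adjusted p = 0.165). Its call also ended in edgeR on the recovered counts (-0.87, adjusted p = 0.0711), with equal positive controls (-0.65, adjusted p = 0.341) and under quantile normalization (-0.18, adjusted p = 0.614).

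The same check of background widened the difference of miR-34a. The mean negative control equalled 3.73% and 9.35% of its count in the tumours, against 36.8% and 45.1% in the normal livers. Less background, it had 76.4 and 67.3 scaled counts in the tumours, against 31.6 and 21.4 in the normal livers. The log2 difference was then 1.43, 2.69-fold, and limma did not call it (adjusted p = 0.0897). Its own unadjusted p in limma was 0.0159 less background and 0.0248 in the deposited scaling, so the call ended in the adjustment over all kept miRNAs. For miR-34c background was at most 1.99% of the count in any sample.

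Of the 3 members kept by the filter on low values, limma called 1 higher, miR-34a, and 1 lower, miR-34b-5p. Over all 276 miRNAs kept, it called 22 higher, which is 7.97%, and 129 lower, which is 46.7%. In 15.2% of the kept miRNAs both tumours lay above both normal livers, as for miR-34a, and in 64.5% both lay below, as for miR-34c. The other 4 members were not kept. MiR-34b-5p (mean 4.11 on the log2 scale) lay just above the filter's limit of 3.93 and miR-34b-3p (mean 3.76) just below it.

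**Figure D3:**
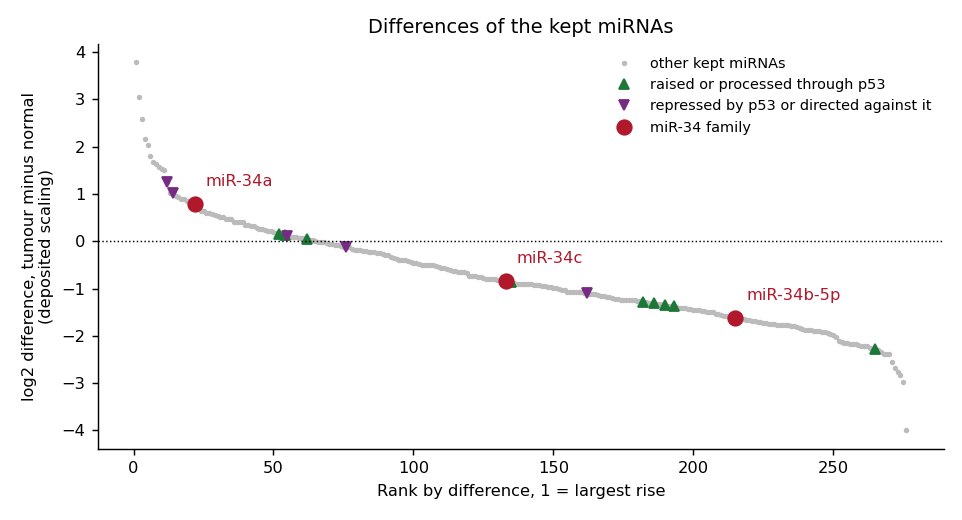
The y axis gives the log2 difference, tumour minus normal, in the deposited scaling for the 276 kept miRNAs, ordered on the x axis by difference. MiR-34a ranks 22 among a minority of positive differences, miR-34c ranks 133 near the middle, miR-34b-5p ranks 215, and the p53-linked miRNAs (triangles) are spread on both sides of 0.

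Because most kept miRNAs were lower in the deposited scaling (median log2 difference -0.90), each member was also set against that shift. The difference of miR-34a exceeded the median of all kept miRNAs by 1.69, and that of miR-34c by 0.065, while that of miR-34b-5p was below the median (-0.72 from it). These distances depend on the filter. Among the 136 miRNAs above the negative controls in all 4 samples the median was -0.31. There miR-34a exceeded the median by 1.09, and miR-34c was below it (-0.53 from it). MiR-34a had rank 22 of 276 with equal totals, equal medians, equal positive controls, edgeR and DESeq2, and rank 19 under quantile normalization. All but quantile normalization apply 1 factor per sample, which shifts all differences nearly alike. The unchanged rank is therefore no independent support. Its log2 difference was 1.24 with equal totals (adjusted p = 0.0163, where limma called 12.3% of kept miRNAs higher). It was 1.58 with equal medians (adjusted p = 0.00794, 21.4% called higher) and 1.78 with equal positive controls (adjusted p = 0.00402, 15.9% called higher). With equal positive controls the 3 kept members had the same SE, 0.497, so that p rests on a variance shared by all kept miRNAs. It does not use the spread of miR-34a itself. EdgeR gave a log2 difference of 1.64 (adjusted p = 0.00327, 25.7% called higher). Under quantile normalization it was 1.31 and not called (adjusted p = 0.0555, 6.52% called higher). The difference of miR-34a was thus larger in these scalings than in the deposited one. Equal medians, edgeR and DESeq2 took their factors from the 276 kept miRNAs, many of them near background in some samples, so their size depends on the filter too. The factors of equal totals and equal positive controls do not use the filter. Factors from the 136 miRNAs above the negative controls in all 4 samples were not tried.

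MiR-34c stayed near the median of all kept miRNAs in all of these scalings except quantile normalization. Its log2 difference was -0.37 with equal totals, -0.024 with equal medians, 0.063 in edgeR and 0.18 with equal positive controls, and none of these was called (adjusted p = 0.38 to 0.97). Under quantile normalization it was -0.69 (adjusted p = 0.351). Outside quantile normalization these scalings move miR-34c and that median nearly alike by construction, so the sign of miR-34c, near the median, is set by the scaling. The closeness itself depends on the filter and on background. In the deposited scaling miR-34c was -0.53 from the median of the 136 miRNAs above the negative controls in all 4 samples. With background subtracted it was -0.39 from the median of all kept miRNAs.

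**Figure D4:**
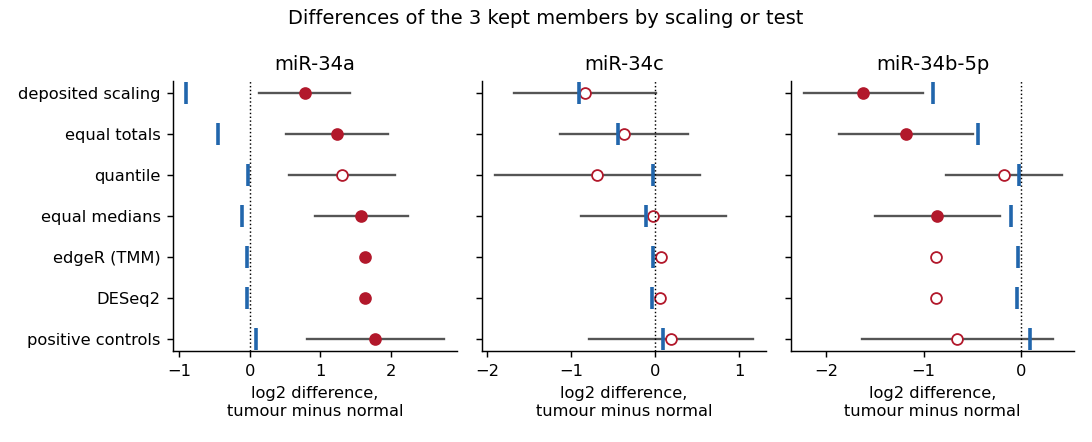
The x axes give the log2 difference, tumour minus normal, of miR-34a, miR-34c and miR-34b-5p under the scalings and tests listed on the y axis, with 95% intervals for the limma fits, filled circles where adjusted p is under 0.05 and a blue bar at the median of all 276 kept miRNAs. MiR-34a is to the right of 0 and of the blue bar throughout, and miR-34c sits on or near the blue bar except under quantile normalization.

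Ratios of counts within a sample do not depend on the scaling, though they are not ratios of amounts, since probes differ in efficiency. Per 1000 counts of miR-34c there were 199 and 103 counts of miR-34a in the tumours, against 48.1 and 44.04 in the normal livers. Both tumours were above both normal livers, and the ratio was 3.11-fold higher in the tumours (log2 difference 1.64), or 4.88-fold with background subtracted from both counts. Per 1000 counts of miR-122 there were 6.35 and 4.53 counts of miR-34a in the tumours, against 2.04 and 1.34 in the normal livers, 3.24-fold higher in the tumours (log2 difference 1.70), or 5.14-fold less background. The ratio of miR-34c to miR-122 overlapped between the groups, with 31.96 and 44.02 per 1000 in the tumours and 42.4 and 30.5 in the normal livers (log2 difference 0.061). Relative to both of these miRNAs, miR-34a was higher in each tumour than in each normal liver. In the deposited scaling miR-122 and miR-34c themselves had log2 differences of -0.90 and -0.84, near the median of all kept miRNAs (-0.90). How many other kept miRNAs were higher relative to them was not counted. With 2 samples per group an exact two-sided permutation test cannot go below p = 0.333, which it gave for both miR-34a ratios, and it gave 0.667 for miR-34c over miR-122 (0.5, 0.5 and 0.667 after Benjamini-Hochberg adjustment over the 3 ratios).

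As a share of all mouse miRNA counts, miR-34a took 0.0838% (exact 95% binomial interval 0.0727 to 0.0963) and 0.0662% (0.0527 to 0.0822) in the tumours. In the normal livers it took 0.0352% (0.0225 to 0.0523) and 0.0274% (0.016 to 0.0439). The intervals of the tumours did not reach those of the normal livers, by a narrow margin (0.0527 in liver tumour replicate 2 against 0.0523 in normal liver replicate 1). How many other miRNAs were separated in this way was not counted. MiR-34c took 0.422% (0.396 to 0.448) and 0.644% (0.6 to 0.69) in the tumours, against 0.731% (0.668 to 0.798) and 0.622% (0.562 to 0.687) in the normal livers. Liver tumour replicate 2 lay between the normal livers and replicate 1 below both. These intervals cover counting error only.

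The miRNAs whose profiles over the 4 samples were nearest to each kept member were found by Euclidean distance between log2 profiles centred on their means, among 275 candidates. The nearest to miR-34a was miR-106b (distance 0.27, against a median of 1.86 over all candidates), with 122 and 95.9 scaled counts in the tumours and 62.6 and 59.7 in the normal livers. Next came let-7c (0.27) and miR-362-3p (0.30), the last of which was above the negative controls in 2 of 4 samples. The nearest to miR-34c were miR-193 (0.16), miR-190b (0.23) and miR-691 (0.24), against a median of 1.13. For miR-34b-5p they were miR-675-5p (0.08), miR-466c-5p (0.095) and miR-467f (0.19), the last pair detected in 2 of 4 samples each. The profiles share libraries and scaling factors, so likeness over 4 samples is a description only.

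No other kept miRNA of a list tied to p53 activation was called higher in the deposited scaling. A list of 12 miRNAs reported as activated by p53, or processed with its help, had 11 own probes, of which 10 were kept. Limma called 0 of them higher (0 also at an unadjusted p under 0.05) and 7 lower, with a median log2 difference of -1.07 beside -0.90 for all kept miRNAs, of which 7.97% were called higher and 46.7% lower. By edgeR 3 were higher and 1 was lower, with a median of -0.19 beside -0.033, where 25.7% of all kept miRNAs were called higher and 14.1% lower. With the positive controls set equal limma called 0 in either direction (3 higher and 1 lower by p-values under 0.05 before adjustment), beside 15.9% higher and 3.62% lower over all kept miRNAs.

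The member of that list furthest from miR-34a was miR-107, which acts on cell cycle and hypoxia genes. It had 47.8 and 36.2 scaled counts in the tumours, against 217 and 197 scaled counts in the normal livers, and fell by 2.29 on the log2 scale (SE 0.27, limma adjusted p = 0.00274), also in edgeR (-1.42, adjusted p = 0.00327). Both tumours were far below both normal livers. MiR-192 and miR-194, which are liver-enriched and share a primary transcript, had log2 differences of -1.38 and -1.35 (adjusted p = 0.00799 and 0.00726), and lost their calls in edgeR (adjusted p = 0.0746 and 0.0717). MiR-200c was also called lower (adjusted p = 0.0238) with 33 and 9 counts in the tumours and 17 and 9 counts in the normal livers, and it was above the negative controls in 1 sample only, so no fold is given. The 3 members called higher by edgeR were miR-16, miR-143 and miR-145.

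A second list held 10 miRNAs reported as repressed by p53 or as acting on its messenger RNA. Of these 8 had a probe of their own, and 5 were kept. Limma called miR-125b-5p (log2 difference 1.26, adjusted p = 0.00853) and miR-25 (1.01, adjusted p = 0.0196) higher and miR-33 (-1.10, adjusted p = 0.0251) lower, with a list median of 0.10 beside -0.90 for all kept miRNAs (7.97% called higher and 46.7% lower). By edgeR 4 were higher and 0 lower (0 lower also at an unadjusted p under 0.05), with a median of 0.97 beside -0.033 (25.7% called higher and 14.1% lower). With equal positive controls limma called 2 higher and 0 lower (0 lower also at an unadjusted p under 0.05), beside 15.9% and 3.62% of all kept miRNAs. MiR-125b and miR-25 are reported in other systems to act on the p53 messenger RNA.

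Markers of cell types were read beside the shares of all kept miRNAs called, 7.97% higher and 46.7% lower by limma in the deposited scaling, 25.7% and 14.1% by edgeR, and 15.9% and 3.62% with equal positive controls. All 6 hepatocyte miRNAs were called lower in the deposited scaling, and their summed level was 15385 and 19674 scaled counts in the tumours, against 32669 and 36679 in the normal livers. Among them miR-802 had a mean of 6.67 scaled counts in the tumours, against 121 in the normal livers. It was above the negative controls in 1 tumour only and was kept through its values in normal liver. EdgeR called 2 of the 6 lower, and limma with equal positive controls 1. All 3 bile duct miRNAs, the cluster of miR-200a, miR-200b and miR-429, were called higher in all 3 settings. Their sums were 1277 and 1244 in the tumours, against 148 and 177 in the normal livers, where miR-429 was above the negative controls in neither sample. MiR-200c and miR-141 were not in this list. In the deposited scaling miR-200c was called lower and miR-141 was not kept, each above the negative controls in 1 sample only. Of 5 mesenchymal miRNAs 2 were called higher, which were both arms of miR-199a. The others, miR-214, miR-143 and miR-145, had log2 differences of -0.085, 0.12 and 0.14. The sums of the 5 were 2428 and 1455 in the tumours, against 1141 and 958 in the normal livers, and 4 were called higher in edgeR and 2 with equal positive controls. Of 5 leukocyte miRNAs 2 were called lower, with sums of 865 and 776 in the tumours, against 1114 and 1453 in the normal livers. Their direction turned with the scaling, the median log2 difference being -0.22 in the deposited scaling, 0.67 in edgeR (2 higher, 1 lower) and 0.80 with equal positive controls (1 higher). Of 2 endothelial arms 1 was called lower, against 1 higher in edgeR, so their direction turned as well (median -0.59, against 0.26 in edgeR). Of 3 erythroid miRNAs limma called 0 (0 also at an unadjusted p under 0.05), against 3 higher in edgeR and 2 with equal positive controls. The part of cell composition in the difference of miR-34a was not tested, and in bulk tissue more cells of a type and more of the miRNA per cell cannot be told apart.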

How the data were processed

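MiRNAs were measured in total RNA with the nCounter miRNA Expression Assay, per the labels' protocols. The deposited table holds signal, which the values show to be each probe's count times 1 factor per sample, by software not given in the sources used here. Control probes were left unscaled. Dividing by the factor gave whole counts for 100% of scaled values in every sample (within 0.1 count). The table has 618 probes.

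The main test was limma 3.58.1 (two-sided moderated test of lmFit and eBayes) on tumour minus normal log2(value + 1), with Benjamini-Hochberg adjustment over kept miRNAs and a threshold of 0.05. Kept miRNAs had a mean log2 value over 3.93. That limit is the mean of the 6 negative controls' mean log2 values, after scaling, plus 2 SD. The stated filter could also be read as pooling their single values, which is run as an alternative. EdgeR 4.0.16 and DESeq2 1.42.0 were run on recovered counts. The fit was also run on simulated counts with the same noise in every sample and scaled to equal totals. These data differ in both respects, so that run does not show how firm the calls are. Sequences were aligned globally with free end gaps.

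Named miRNAs were all members, the 3 nearest to each kept member, up to 4 called members per p53 list by size, and miR-122. Others are named where a count needed its members spelled out. Members and lists were chosen with earlier results of these data known. Probes naming several miRNAs (miR-17, miR-20a) were left out of the lists. The pairing check gave r = 0.042 for same-numbered samples, and the labels state no shared animal or day, so numbers were not taken as pairs.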

Additional observations from a re-analysis of the deposited data

How the results depend on the processing

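MiR-34a kept a positive difference in all 21 alternatives and its call in 12. The alternatives that changed only the filter, the eBayes option or the replicate block left that difference at 0.78 by construction. Beside those given above, the call ended with no filter (0.78, adjusted p = 0.0821), among miRNAs above the negative controls in at least 2 samples (0.78, adjusted p = 0.05004) and with the replicate number as a block (0.78, adjusted p = 0.0686). Quantile normalization gave 1.31 and background subtraction 1.43. Leaving out 1 sample gave 0.61 to 0.96 for miR-34a, -1.26 to -0.41 for miR-34c and -1.71 to -1.53 for miR-34b-5p. MiR-34c had 0.18 with equal positive controls, 0.063 in edgeR and 0.056 in DESeq2, all above 0, and was called at pseudocounts of 10 (-0.83) and 30 (-0.80) and with an eBayes trend (-0.84). MiR-34b-5p lost its call with quantile normalization (-0.18), positive controls (-0.65), edgeR (-0.87), DESeq2 (-0.87) and background subtraction (-1.43). The cause of these changes was not tested.

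Members called higher fell to 0 in the 9 alternatives in which miR-34a lost its call and at a threshold of 0.01, and to 0 to 0 without each sample. Members called lower were 0 with quantile normalization, positive controls, edgeR, DESeq2, background subtraction and the 2 stricter filters. They were 2 at pseudocounts of 10 and 30, with the trend and at a threshold of 0.1, where 143, 134, 143 and 152 of the 276 kept miRNAs were called lower. With no filter they were 3, beside 276 of all 566 probes. These 3 were miR-34b-3p, miR-34b-5p and miR-449a, none above the negative controls in both samples of a group. MiRNAs called higher, 22 in the deposited scaling, were 59 with equal medians, 34 with equal totals, 44 with positive controls, 71 in edgeR, 53 in DESeq2, 8 with background subtraction, 12 at 0.01 and 7 to 18 without each sample. MiRNAs called lower, 129, were 50, 74, 10, 39, 12 and 0 in the same settings, 81 at 0.01, 13 with quantile normalization, 276 with no filter, 50 above the negative controls in all samples, 34 with pooled negative control values (added after the data were seen) and 47 to 127 without each sample.

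In the list activated by p53, called-higher members were 2 with equal medians, 3 in edgeR and 3 in DESeq2, and 0 to 0 without each sample. Its called-lower members, 7, were 1 with equal medians, quantile normalization, edgeR and DESeq2, 3 with equal totals and at 0.01, 0 with positive controls and background subtraction, and 1 to 6 without each sample. In the second list called-higher members, 2, were 1 with quantile normalization and at 0.01, 4 in edgeR, 0 with background subtraction and 0 to 2 without each sample. Its called-lower member was lost (0) in all other scalings, edgeR, DESeq2, background subtraction, pooled control values and at 0.01, was 2 with no filter, and 0 to 1 without each sample. MiR-34b-5p was above mean plus 3 SD in 0 samples, and miR-449a above the highest negative control in 1. With background subtracted from both counts (also added later), the ratio of miR-34a to miR-34c differed by 2.29 and to miR-122 by 2.36 on the log2 scale. Without each sample these ratios differed by 1.16 to 2.11 and 1.39 to 2.0, and miR-34c over miR-122 by -0.18 to 0.30, its sign turning without liver tumour replicate 2 (-0.17) or normal liver replicate 2 (-0.18). Depth limits the normal livers most, where miR-34a rests on 24 and 17 counts. Where members called higher were 0, 0 to 1 passed an unadjusted p of 0.05, likewise 0 to 1 of those called lower, and 57 miRNAs were lower at that level with background subtracted.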
